A study of Mus musculus with 16 samples.

Results

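Transcript levels of 10 genes that serum, growth factors or mechanical load can induce in cells were followed in mouse quadriceps across a high-fat diet and acute exercise. The genes were Egr1, Egr2, Egr3, Myc, Srf, Ier2, Ier3, Ier5, Cyr61 and Ctgf, chosen by symbol, and all 10 of the 10 were found among the 23970 symbols of the expression table. Muscles came from male C57BL/6NTac mice aged 16 weeks that had been fed for 10 weeks on diets in which fat supplied either 10% (CON) or 60% (HFD) of the calories. The CON-pre and HFD-pre muscles were taken at rest, the CON-post and HFD-post muscles 3 h after 1 maximal treadmill run, with 4 libraries per group and 16 in all. The resting mice were other animals that had been through the same treadmill acclimatization and fasting but not the run, the labels name no other allele or agent in any group, and whole muscle was sampled at 1 time after exercise. The study counts 4 muscles per group without tying a library to a cage or day, so p-values rest on the spread between these muscles.

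When a cell is stimulated by serum or stretch, MAP kinase and actin signalling reach transcription factors that are already present, above all SRF with its ETS-domain and MRTF partners, and genes such as Egr1 and Ier2 are switched on without new protein synthesis. The proteins made in this wave include transcription factors (the EGR zinc fingers, MYC) that act on a later set of targets, and secreted matricellular proteins of the CCN family (CYR61 and CTGF) that bind integrins and growth factors. In muscle fibres the same genes are known as early responders to contraction, and their mRNAs are short-lived.

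The 5 genes with an entry in the RefSeq promoter table were Egr2, Srf, Ier3, Ier5 and Cyr61, and the windows of 250 bases before and 50 after the annotated start were searched on both strands. The letters searched were the CArG box (the SRF site), GCGTGGG (bound by EGR proteins), CACGTG (the E-box of MYC and MAX), GGAATG (bound by TEAD factors) and CCGGAA (bound by ETS factors). The 250 bases before the start of 3 of these genes are shown because they hold such letters, in capitals, for SRF or TEAD and come from a gene that rose after exercise (Cyr61), one whose differences missed the threshold (Srf) and one that was barely present (Egr2). Each is written 5′ to 3′ on the gene's own strand, in build GRCm38.p6: chr3:145649986-145650235, minus strand, for Cyr61, chr17:46556163-46556412, minus strand, for Srf and chr10:67537680-67537929, plus strand, for Egr2. The starts used for Srf and Egr2 lie inside the spans of these genes, which also cover transcripts with other starts.
Cyr61: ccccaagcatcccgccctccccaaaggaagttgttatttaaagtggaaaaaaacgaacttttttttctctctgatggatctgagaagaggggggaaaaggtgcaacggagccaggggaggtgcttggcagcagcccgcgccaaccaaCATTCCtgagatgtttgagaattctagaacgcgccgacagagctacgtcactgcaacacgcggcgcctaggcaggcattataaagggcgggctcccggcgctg
Srf: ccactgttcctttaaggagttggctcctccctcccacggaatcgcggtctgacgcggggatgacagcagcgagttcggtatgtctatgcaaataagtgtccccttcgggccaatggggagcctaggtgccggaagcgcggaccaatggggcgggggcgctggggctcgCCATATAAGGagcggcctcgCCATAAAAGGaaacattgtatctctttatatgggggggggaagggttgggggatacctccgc
Egr2: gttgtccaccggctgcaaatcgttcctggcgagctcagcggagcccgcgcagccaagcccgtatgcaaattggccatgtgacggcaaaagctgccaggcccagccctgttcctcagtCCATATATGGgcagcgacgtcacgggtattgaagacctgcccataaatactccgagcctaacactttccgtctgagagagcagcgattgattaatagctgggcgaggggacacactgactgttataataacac

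The Srf window held 2 CArG boxes, from base -82 to -73 and from -62 to -53 before the start, and a CCGGAA at -122 to -117. The Egr2 window held 1 CArG box, at -133 to -124, and the same box lay in 3 of its 5 overlapping or neighbouring windows. A further Egr2 window held another CArG box, a GGAATG and 3 CCGGAA matches, 2 of which overlap each other and the GGAATG, and another held CACGTG. In the Cyr61 window the only match was GGAATG, read as CATTCC on the printed strand, at -103 to -98, while Ier3 and Ier5 had no match in theirs. Of all 32851 promoter windows in the table, 1.63% held a CArG box, 5.04% GCGTGGG, 7.15% CACGTG, 14.7% GGAATG and 14.9% CCGGAA. A match describes letters only, and binding was not measured.

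Levels are given in FPKM (fragments scaled to transcript length and to the mapped fragments of the library), as the authors deposited them, so that they can be compared between genes per length. The 16 libraries had FPKM sums from 283574.9 to 329281.5 and depths, relative to CON-pre replicate 1, from 0.706 to 1.12, with a median of 0.964. CON-post replicate 1 and HFD-post replicate 1 were the lowest library of their groups for 48.0% and 44.1% of the 11256 genes tested. All 8 of the skeletal muscle markers (Acta1, Ckm, Mb, Myh4, Tnnt3, Des, Myh1 and Pygm) passed the filter in a tissue labelled skeletal muscle, and their summed FPKM lay between 46665 and 61274.

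At rest Srf was the highest, with 16.1 ± 1.60 FPKM (SD, n = 8 resting libraries of both diets), and its lowest library (13.7) was above the highest of any other member. Cyr61 (8.0 ± 1.73) and Ctgf (7.83 ± 2.28) came next, and these neighbours did not differ beyond their spread. Ier3 (3.01 ± 0.655), Ier5 (2.05 ± 0.734), Myc (1.59 ± 0.580), Ier2 (1.57 ± 0.413) and Egr1 (1.16 ± 0.471) followed, each with a range that overlapped that of its neighbour. Egr2 (0.233 ± 0.102) and Egr3 (0.127 ± 0.0547) were at the bottom, the highest Egr2 library just above the lowest of Egr1. After exercise the order changed at the top and in the middle: Cyr61 (25.4 ± 6.41 FPKM, SD, n = 8) lay above Srf (13.5 ± 1.46) without overlap, and Egr1 (4.13 ± 2.15) had moved up from below Ier2 to just below Ctgf. Its range, from 1.13 to 7.89, overlapped those of Ctgf, Myc, Ier5, Ier3 and Ier2.

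**Figure D1:**
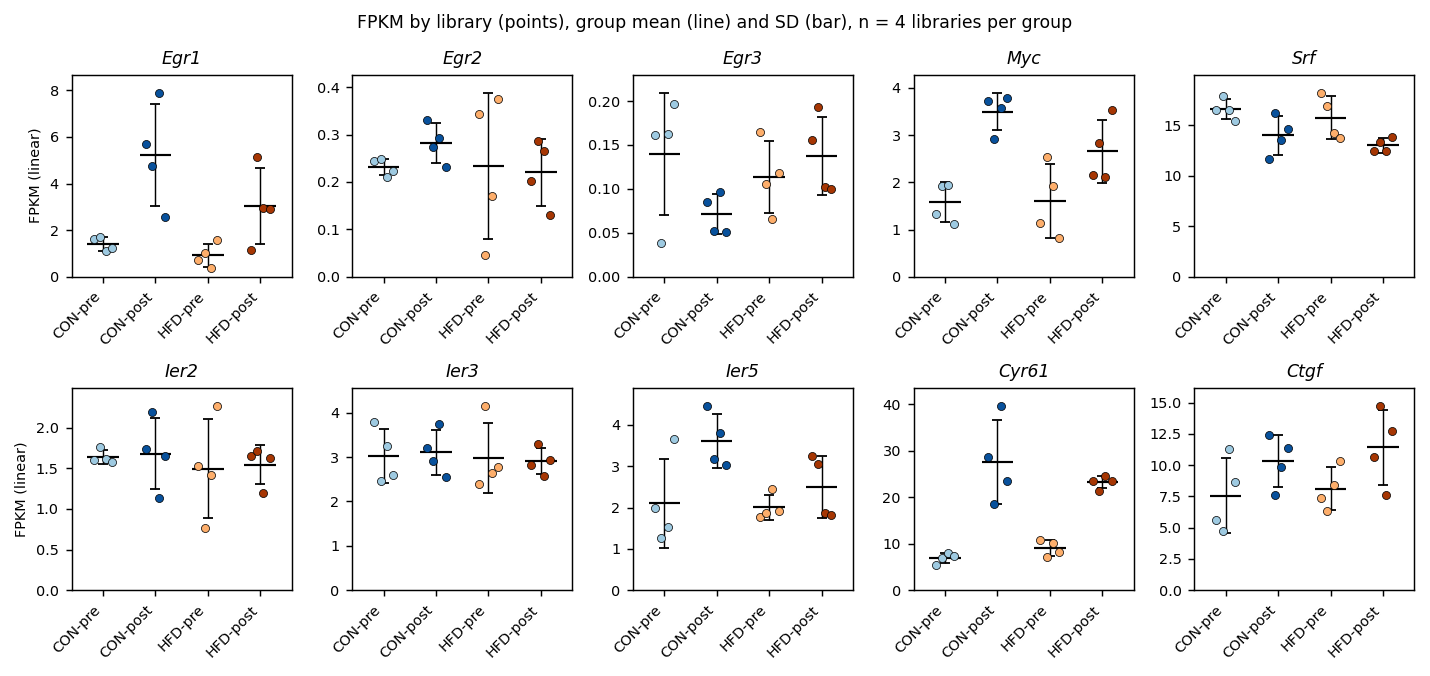
Deposited FPKM of the 10 genes on linear axes that start at 0 and differ between panels. Points are the 4 libraries of each group (CON-pre, CON-post, HFD-pre, HFD-post), horizontal lines the group means and bars 1 SD. All 8 post-exercise libraries of Cyr61 lie above all 8 resting ones, Egr1 and Myc separate fully on CON but not on HFD, and Egr2 and Egr3 stay under 0.4 FPKM.

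Cyr61, which encodes a secreted CCN protein that binds integrins and heparan sulphate (RefSeq Ccn1, chr3:145646971-145649985), had the clearest response to exercise. It was present at 5.45, 6.98, 7.92 and 7.35 FPKM in CON-pre and at 28.7, 18.4, 39.5 and 23.5 FPKM in CON-post. On HFD it was present at 10.8, 7.16, 10.04 and 8.24 FPKM before and at 23.4, 21.4, 24.5 and 23.5 FPKM after exercise. Every post-exercise library was above every resting library, with no overlap on either diet, a separation that 0.613% of the genes tested showed in the upward direction. The group mean was 3.98 times as high after exercise on CON (log2 fold change 1.87, SE 0.18, limma adjusted p = 4.96e-05) and 2.56 times as high on HFD (1.32, SE 0.18, limma adjusted p = 0.00342). Pooled over the diets, the log2 fold change was 1.60 (SE 0.13, limma adjusted p = 2.28e-06).

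Here and in what follows, log2 fold changes are of FPKM + 0.5, which understates the change of low genes, and a gene is called when the Benjamini-Hochberg adjusted p of the limma fit over all 11256 genes is under 0.05. In whole muscle, a change in the number of cells of a type and a change in RNA per cell cannot be told apart. The summed FPKM of the 7 smooth muscle and pericyte markers, all above the filter, moved in the same direction. It was 81.3 to 89.2 in CON-pre and 91.4 to 111.7 in CON-post, without overlap (upwards in 3.29% of single genes). On HFD the sums overlapped, at 83.0 to 100.8 FPKM in HFD-pre and 94.4 to 110.8 FPKM in HFD-post. Single markers were uneven, with a pooled log2 fold change of 0.43 for Tagln, 0.40 for Cnn1 and 0.02 for Acta2. Tagln, Cnn1 and Acta2 are also counted below as SRF cytoskeletal targets. Adipocyte markers (7 of 7 tested) had a median sum of 427.6 FPKM in CON-pre, 538.2 in CON-post, 371.0 in HFD-pre and 522.0 in HFD-post, and skeletal muscle markers one of 59108, 54151, 52335 and 50801 FPKM, with ranges that overlapped between pre and post on each diet. With exercise pooled over the diets, limma called 1 of the 7 smooth muscle and pericyte, 1 of 8 endothelial, 1 of 8 skeletal muscle, 0 of 8 fibroblast and 0 of 7 adipocyte markers, where 3.86% of all genes were called. Their part in the Cyr61 response was not tested.

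Egr1, the zinc-finger transcription factor that is the standard readout of MAP kinase and SRF signalling, lies on chromosome 18. It was present at 1.62, 1.72, 1.09 and 1.23 FPKM in CON-pre and at 5.71, 4.74, 7.89 and 2.58 FPKM in CON-post. On HFD it was present at 0.703, 1.02, 0.369 and 1.57 FPKM before and at 1.13, 5.13, 2.95 and 2.91 FPKM after exercise. The groups did not overlap on CON, a separation that 3.29% of all genes tested showed upwards. On HFD they did, through HFD-post replicate 1, which lay within the resting range while the other 3 libraries were above it. The mean rose from 1.41 ± 0.304 to 5.23 ± 2.20 FPKM on CON (SD, n = 4 each; log2 fold change 1.51, SE 0.35, limma adjusted p = 0.0455). On HFD the means were 0.914 ± 0.509 and 3.03 ± 1.64 FPKM (log2 fold change 1.26, SE 0.35), which was not called (limma adjusted p = 0.143). Without HFD-post replicate 1 the HFD change was called (1.59, limma adjusted p = 0.0328). Without any one of the CON libraries other than CON-post replicate 4 the CON change was not (limma adjusted p between 0.0160 and 0.152 over 19 alternatives, with a log2 fold change from 1.29 to 1.78). Pooled over both diets, Egr1 rose by a log2 fold change of 1.38 (SE 0.25, limma adjusted p = 0.00387) and was called in 26 of 26 alternatives.

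Myc encodes the basic helix-loop-helix factor that pairs with MAX and raises ribosome and nucleotide synthesis (chr15:61985341-61990361). Its levels were 1.32, 1.93, 1.95 and 1.12 FPKM in CON-pre and 3.71, 2.92, 3.58 and 3.78 FPKM in CON-post. They were 1.13, 2.54, 1.93 and 0.824 FPKM in HFD-pre and 2.15, 2.83, 2.12 and 3.53 FPKM in HFD-post. The CON libraries separated fully, and on HFD the highest resting library lay above 2 of the 4 exercised ones. The CON difference of 2.21 times (log2 fold change 0.96, SE 0.23) fell just outside the threshold (limma adjusted p = 0.0510, 0.0223 to 0.174 among 19 alternatives), and the HFD difference of 1.65 times (0.64, SE 0.23) was not called (limma adjusted p = 0.273). Pooled over both diets, Myc rose by a log2 fold change of 0.80 (SE 0.16, limma adjusted p = 0.00927), called in 26 of 26 alternatives.

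**Figure D2:**
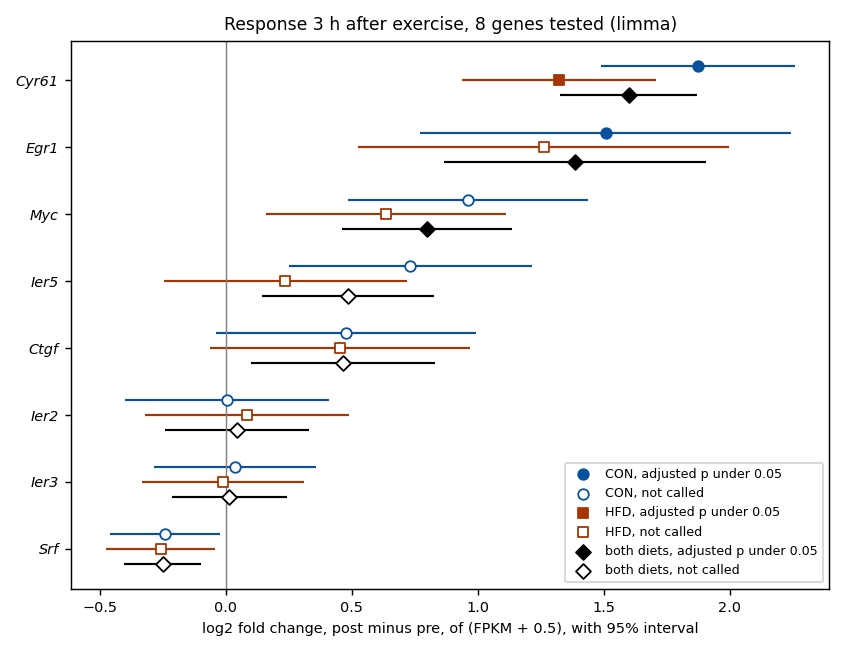
Log2 fold change of FPKM + 0.5 from before to 3 h after exercise for the 8 genes tested (horizontal axis, with 95% intervals), on CON (circles), on HFD (squares) and pooled (diamonds). Filled symbols have a limma adjusted p under 0.05. Cyr61 is called on both diets and pooled (1.87, 1.32 and 1.60), Egr1 on CON and pooled (1.51 and 1.38), Myc when pooled (0.80), and Ier2 and Ier3 lie near 0.

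Ier5, an immediate early gene whose product regulates heat shock factor and PP2A activity (chr1:155096367-155099636), was present at 1.99, 1.25, 1.52 and 3.65 FPKM in CON-pre and at 4.45, 3.17, 3.81 and 3.04 FPKM in CON-post. On HFD the values were 1.78, 1.86, 2.46 and 1.92 FPKM before and 3.24, 3.06, 1.88 and 1.83 FPKM after exercise. A single resting CON library, replicate 4, was as high as the exercised ones, and on HFD 2 exercised libraries were above all resting libraries and 2 were not. The log2 fold change was 0.73 on CON (SE 0.23, limma adjusted p = 0.174), 0.24 on HFD (limma adjusted p = 0.736) and 0.48 pooled (SE 0.16, limma adjusted p = 0.109). Without CON-pre replicate 4 it was called on CON (0.98, limma adjusted p = 0.0118) and pooled (0.61, limma adjusted p = 0.0115). The HFD value was 0.12 without HFD-post replicate 1 and 0.35 without HFD-post replicate 4. Read steps could be recovered for this gene, and its 16 values corresponded to between 28 and 134 reads, with a median of 66.

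Ctgf, the second CCN member and a matricellular protein tied to fibrosis and YAP-TEAD activity (RefSeq Ccn2, chr10:24595442-24598683), stood at 5.58, 4.73, 11.3 and 8.62 FPKM in CON-pre and at 12.4, 7.58, 9.89 and 11.3 FPKM in CON-post. It stood at 7.38, 6.35, 8.37 and 10.3 FPKM in HFD-pre and at 10.6, 14.7, 7.61 and 12.7 FPKM in HFD-post. The groups overlapped on both diets. The log2 fold changes were 0.48 on CON (SE 0.24, limma adjusted p = 0.490) and 0.45 on HFD (SE 0.24, limma adjusted p = 0.492), and the pooled value of 0.46 (95% interval 0.10 to 0.83) was not called (limma adjusted p = 0.158). Without 1 library the CON value lay between 0.29 (without CON-pre replicate 2) and 0.69 and the HFD value between 0.32 and 0.62.

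Srf, the MADS-box factor through which serum, actin dynamics and MAP kinases act on these genes (chr17:46546838-46558267), was present in CON-pre at 16.5, 17.8, 16.5 and 15.4 FPKM. It stood at 11.6, 16.2, 13.5 and 14.6 FPKM in CON-post, at 18.2, 16.9, 14.2 and 13.7 FPKM in HFD-pre and at 12.4, 13.4, 12.4 and 13.8 FPKM in HFD-post. On both diets 3 of the 4 exercised libraries were below all resting ones and the other overlapped with them. The ratio of the means was 0.846 on CON (log2 fold change -0.24, SE 0.10, limma adjusted p = 0.383) and 0.826 on HFD (-0.26, SE 0.10, limma adjusted p = 0.335). Without CON-post replicate 1 the CON value was -0.16, and without CON-post replicate 2 it was -0.31. The pooled log2 fold change was -0.25 (SE 0.07, 95% interval -0.40 to -0.10). It missed the threshold with a limma adjusted p of 0.0665 and passed it in 6 of 26 alternatives, among them the 3 other scalings (0.0215 to 0.0300).

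Ier2 (chr8:84661331-84662852) and Ier3 (chr17:35821713-35822911), an immediate early nuclear protein and a stress-induced regulator of apoptosis, did not pass the test in any contrast. Ier2 lay between 0.770 and 2.27 FPKM over the 16 libraries and Ier3 between 2.40 and 4.15 FPKM, with overlapping groups throughout. The pooled exercise difference was 0.04 on the log2 scale for Ier2 (95% interval -0.24 to 0.33, limma adjusted p = 0.904) and 0.01 for Ier3 (95% interval -0.22 to 0.24, limma adjusted p = 0.964). The sign of both changed in some alternatives.

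Egr2 (chr10:67534469-67542188), the EGR factor of myelinating Schwann cells, and Egr3 (chr14:70077317-70082613), the EGR factor of muscle spindle development, averaged less than 0.5 FPKM, so they did not enter the fit. Egr2 values lay between 0.0460 and 0.375 FPKM and corresponded to between 1 and 12 reads (median 7), and Egr3 values lay between 0.0381 and 0.196 FPKM and corresponded to between 1 and 8 reads (median 3). Egr2 was at 0.332, 0.274, 0.293 and 0.231 FPKM in CON-post against 0.245, 0.248, 0.211 and 0.223 FPKM in CON-pre, 3 of 4 above all CON-pre libraries (exact permutation p = 0.0857, two-sided). For Egr3, HFD-post (0.155, 0.193, 0.102 and 0.0997 FPKM) lay above CON-post (0.0853, 0.0526, 0.0967 and 0.0508 FPKM) without overlap. That gave the smallest exact permutation p that 4 against 4 libraries allow, 0.0286, and 0.229 after Benjamini-Hochberg adjustment over the 8 exact permutation tests of these genes. The other 6 tests had an exact permutation p of at least 0.143.

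Counted over the 8 members that could be tested, 2 (Egr1 and Cyr61) were called on CON, where 1.11% of all genes tested were called. A single member (Cyr61) was called on HFD, where 0.542% of all genes were. With exercise pooled over the diets, 3 members (Egr1, Myc and Cyr61) were called, where 3.86% of all genes were, and all 3 were higher, the direction of 2.95% of all genes. At an unadjusted limma p under 0.05 the counts were 5, 4 and 6 members, against 11.1%, 11.7% and 18.5% of all genes. The median log2 fold change of the 8 was 0.60 on CON, 0.34 on HFD and 0.47 pooled, beside medians over all genes of -0.01, 0.04 and 0.01. The pooled contrast is the mean of those on CON and on HFD, so the 3 counts share their libraries. The members were chosen with earlier results of these data known, so these shares are no test of that choice.

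The diet alone moved no member past the threshold. Between HFD-pre and CON-pre 0 of the 8 were called by limma (0.346% of all genes were), 0 of them at an unadjusted p under 0.05 (8.25% of all genes). The estimates farthest from 0 with all libraries were those of Egr1 (log2 fold change -0.49, HFD-pre minus CON-pre, 95% interval -1.23 to 0.24) and Cyr61 (0.36, 95% interval -0.02 to 0.75). Without HFD-pre replicate 3 the Egr1 value was -0.28, and without HFD-pre replicate 4 it was -0.70. Between HFD-post and CON-post 0 of the 8 were called by limma (0.151% of all genes), with 1 at an unadjusted p under 0.05 (6.29%). That member was Egr1, whose mean was 0.580 times as high in HFD-post as in CON-post (log2 fold change -0.74, 95% interval -1.48 to -0.004, limma adjusted p = 0.793), with overlapping groups. Without HFD-post replicate 1 the log2 fold change was -0.41, and without CON-post replicate 4 it was -1.01. Ier5 followed with 0.692 times (-0.48, 95% interval -0.96 to 0.004, limma adjusted p = 0.802). The median log2 fold change of the 8 in HFD-post against CON-post was -0.14, beside 0.004 over all genes. These comparisons reuse the libraries of the exercise contrasts.

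Pooled over both exercise states, 0 of the 8 differed between diets by limma (0.959% of all genes did), 1 of them at an unadjusted p under 0.05 (10.4% of all genes). It was again Egr1, at 1.97 ± 1.59 FPKM in the 8 HFD libraries and 3.32 ± 2.51 FPKM in the 8 CON libraries (log2 fold change -0.62, SE 0.25, limma adjusted p = 0.361).

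Whether the exercise response differed between diets was tested by the interaction. By limma 0 of the 8 members were called, as were 0% of all genes, with 1 member and 3.16% of all genes at an unadjusted p under 0.05. That member was Cyr61, whose log2 fold change was 0.55 lower on HFD (interaction -0.55, 95% interval -1.10 to -0.004, limma adjusted p = 0.9999). Without CON-post replicate 3 the Cyr61 interaction was -0.36, and without CON-post replicate 2 it was -0.72. The interval of Egr1 ran from -1.29 to 0.79, that of Myc from -0.999 to 0.35 and that of Ier5 from -1.18 to 0.19, all of them spanning 0. A call on CON and none on HFD, as for Egr1, was therefore not shown to be a difference between diets.

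**Figure D3:**
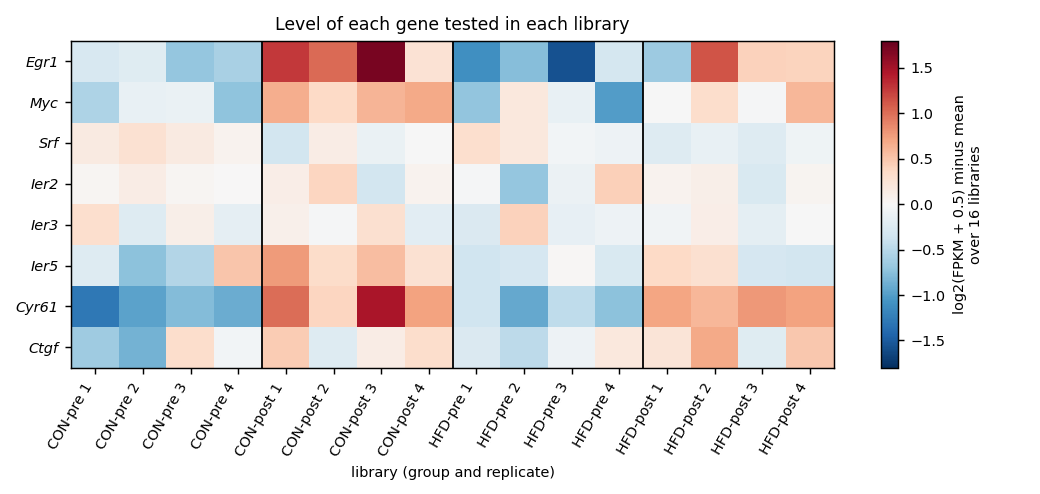
Level of the 8 genes tested in each of the 16 libraries, as log2(FPKM + 0.5) minus the gene's mean over the libraries (red above, blue below the mean), with libraries ordered by group and replicate. The row of Cyr61 turns from blue to red after exercise in every library, that of Egr1 in all but HFD-post replicate 1, and that of Myc fully on CON only, since HFD-pre replicate 2 is above and HFD-post replicates 1 and 3 just below its mean, and Ier5 is red in CON-pre replicate 4.

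The members did not follow one another from muscle to muscle within groups. After each group's mean was removed, 14 of the 28 pairs of tested members had a positive Pearson correlation over the 16 libraries. Values ran from -0.54 (Myc and Ier2) to 0.42 (Egr1 and Ier3), with a median of -0.01. Without the 2 libraries farthest from the median of the gene named first, Myc and Ier2 had 0.02 and Egr1 and Ier3 0.38, and Ier2 and Cyr61 went from -0.28 to -0.70. Srf and Ier5 went from -0.52 to -0.49. With all 16 libraries the value was 0.04 for Egr1 and Cyr61 and 0.28 for Cyr61 and Ctgf. HFD-post replicate 1, the library in which Egr1 was low, had 23.4 FPKM of Cyr61, close to the group mean of 23.2 FPKM. It was the lowest library of its group for 2 of the 8 members tested and 11 of 29 other immediate early genes, smaller shares than the 44.1% of all genes tested.

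The genes most like each member over the 16 libraries were found by Pearson correlation of log2(FPKM + 0.5), given here as a description, since all libraries share the 4 groups and the shift with exercise. For Cyr61 they included Dnajb4 (r = 0.955) and Lmod2 (0.944), an HSP40 co-chaperone and an actin filament nucleator of the sarcomere. After the group means were removed these correlations were 0.727 and 0.656. For Egr1 they were Hspa1b (0.937), Impact (0.936) and Cltc (0.933), an inducible HSP70 whose near-identical copy could share its reads, a regulator of the GCN2 kinase and the clathrin heavy chain, with 0.807, 0.865 and 0.776 after the means were removed. For Myc they were Trib1 (0.857), Dhrs3 (0.844) and Nfil3 (0.831), with 0.513, 0.750 and 0.504. For Srf they were Clec16a (0.911), Dagla (0.905) and Lgals1 (0.898), with 0.845, 0.885 and 0.874. For Ier2 they were Rab24 (0.834), Slc35b2 (0.820) and Sdhaf1 (0.816), for Ier3 Zfp444 (0.796), 4930506M07Rik (0.789) and Dnm3 (0.781), and for Ctgf Dhps (0.887), Eva1b (0.863) and Shank3 (0.824), none of them called for pooled exercise by limma. For Ier5 they were Alyref (0.898), Cstf2t (0.869) and Clip1 (0.847), of which Clip1 was called (log2 fold change 0.30, limma adjusted p = 0.0290).

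Genes around the members were read from 7 lists, which were also chosen with earlier results of these data known. Among 32 other immediate early genes, 29 were tested, and 9 rose on CON, 3 on HFD and 10 in the pooled contrast, with none lower, where 1.11%, 0.542% and 3.86% of all genes were called in either direction. Of the 29, 0 were called in the interaction and 0 between HFD-post and CON-post (0% and 0.151% of all genes). A difference between diets was therefore not shown for these genes. Their median log2 fold change was 0.42 on CON, 0.29 on HFD and 0.32 pooled, beside -0.01, 0.04 and 0.01 over all genes. The smallest adjusted p belonged to Btg2, an antiproliferative mRNA deadenylation factor, Atf3, a stress-induced bZIP factor, and Maff, a small MAF factor. Pooled over diets, Atf3 rose from a mean of 4.93 to 34.4 FPKM (log2 fold change 2.66, limma adjusted p = 1.09e-05), Btg2 from 3.84 to 10.8 FPKM (1.34, limma adjusted p = 4.71e-06) and Maff from 0.651 to 2.31 FPKM (1.29, limma adjusted p = 4.94e-05). All 3 were higher in every post-exercise library than in any resting library.

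**Figure D4:**
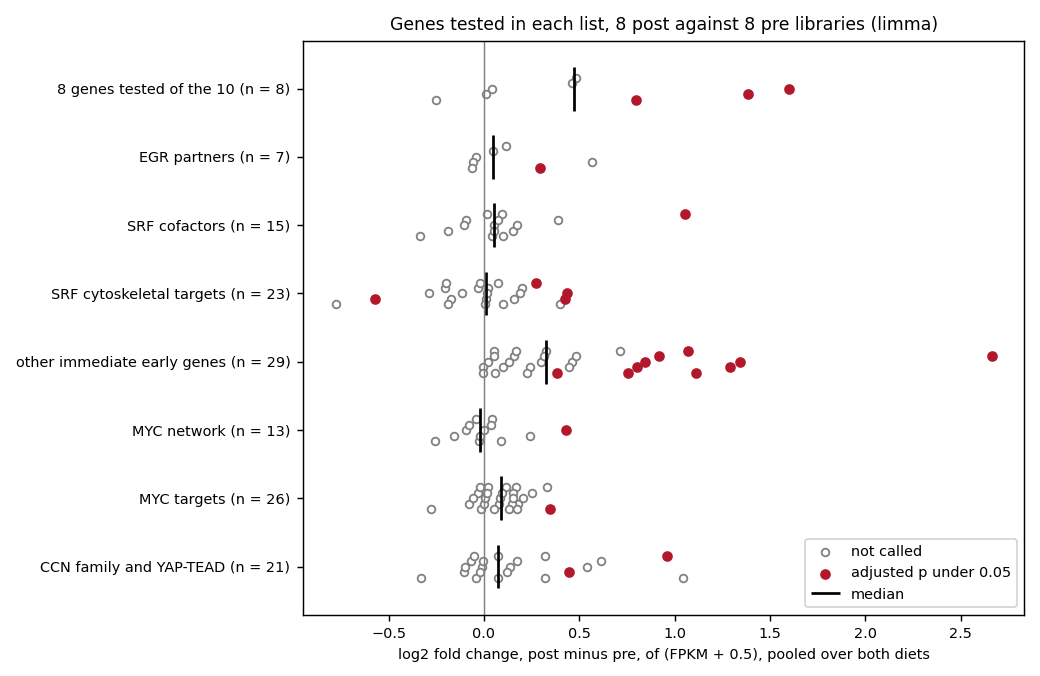
Log2 fold change of FPKM + 0.5, 8 post-exercise against 8 resting libraries, for each gene tested among the 10 members and the 7 companion lists (1 point a gene, vertical bar the list median, filled points with a limma adjusted p under 0.05). The other immediate early genes lie to the right, with 10 of 29 called and a median of 0.32, while MYC targets, MYC network genes and SRF cytoskeletal targets centre near 0.

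Of 9 EGR partners, 7 were tested. Nab1, a corepressor that binds EGR proteins, rose in the pooled contrast from 1.65 to 2.14 FPKM (log2 fold change 0.30, SE 0.07, limma adjusted p = 0.0337). It was the 1 partner called there, where 3.86% of all genes were. No partner was called on CON or HFD alone (1.11% and 0.542% of all genes). All its post-exercise libraries lay above all resting ones, as for 0.613% of all genes, but only just. Its highest CON-pre library had 1.926 FPKM and its lowest CON-post library 1.929 FPKM. The median of the 7 was 0.05 in the pooled contrast.

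Of 16 SRF cofactors and upstream kinases, 15 were tested and 1 was called, Abra, on CON, on HFD and pooled (1.11%, 0.542% and 3.86% of all genes). This gene encodes STARS, the striated-muscle actin-binding protein that promotes SRF-dependent transcription. It lay at 63.8 to 85.5 FPKM in CON-pre, 157.4 to 215.3 in CON-post, 85.2 to 98.2 in HFD-pre and 108.4 to 176.9 in HFD-post, without overlap on either diet (upwards in 3.29% and 4.72% of all genes). The log2 fold change was 1.36 on CON (SE 0.15, limma adjusted p = 7.40e-05) and 0.75 on HFD (SE 0.15, limma adjusted p = 0.0266). The median of the 15 genes was 0.05 in the pooled contrast.

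All 23 SRF cytoskeletal targets were tested, and none was called on CON or HFD alone by limma, with 6 and 7 at an unadjusted p under 0.05 (11.1% and 11.7% of all genes). In the pooled contrast 12 of the 23 were at an unadjusted p under 0.05 (18.5% of all genes). In that contrast 1 was called lower and 3 higher (3.86% of all genes in either direction, 2.95% higher): Pdlim5, a Z-disc PDZ-LIM protein (208.6 to 253.1 FPKM, log2 fold change 0.27, limma adjusted p = 0.0166), Tagln, a smooth muscle actin-binding protein (10.98 to 15.01 FPKM, 0.43, limma adjusted p = 0.0215), and Itga5, the fibronectin receptor subunit (1.69 to 2.44 FPKM, 0.44, limma adjusted p = 0.0322). Actg1, cytoplasmic gamma-actin, fell from 40.5 to 28.0 FPKM (-0.57, limma adjusted p = 0.0307). The median of the list was 0.01, equal to that of all genes to 2 decimals.

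Of 16 MYC network genes, 13 were tested, and 1 was called on CON, 0 on HFD and 1 pooled (1.11%, 0.542% and 3.86% of all genes). Usp28, a deubiquitinase that stabilises MYC, rose on CON (log2 fold change 0.65, SE 0.12, limma adjusted p = 0.00859), where its FPKM went from between 11.9 and 13.7 to between 15.8 and 23.0, and in the pooled contrast (0.43, limma adjusted p = 0.00800). On HFD its log2 fold change was 0.21 (limma adjusted p = 0.514), with overlapping ranges of 13.8 to 16.2 and 14.1 to 20.9 FPKM. In the interaction 0 of the 13 network genes were called, as were 0% of all genes. Of 26 MYC targets in ribosome assembly, growth and metabolism, all were tested, and 1 was called in the pooled contrast, a share near the 3.86% of all genes: Eif4a1, an RNA helicase of translation initiation, rose from 8.06 to 10.4 FPKM (0.35, limma adjusted p = 0.0478). The median of the 26 was 0.09 in the pooled contrast, beside 0.01 over all genes, and 19 were higher.

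Of 23 further CCN family, YAP and TEAD genes, 21 were tested. In this list 1 was called on CON, 1 on HFD and 2 pooled, where 1.11%, 0.542% and 3.86% of all genes were. Vgll2, a TEAD cofactor of skeletal muscle, rose on CON (log2 fold change 0.94, SE 0.18, limma adjusted p = 0.0119) and on HFD (0.98, SE 0.18, limma adjusted p = 0.0221), with means of 10.9 and 21.8 FPKM on CON and 12.8 and 25.7 FPKM on HFD. Vgll2 was also called in the pooled contrast (0.96, limma adjusted p = 0.000320). So was Amotl2, an angiomotin scaffold that binds YAP, which rose from 2.81 to 3.97 FPKM (0.44, limma adjusted p = 0.0151). The median of the 21 was 0.07 in the pooled contrast, beside 0.01 over all genes, and 12 were higher.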

How the data were processed

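Stranded poly(A) libraries of quadriceps RNA were sequenced by the authors, who used TopHat for alignment and Cufflinks for expression estimates (versions not given in the sources used here). They deposited 1 table of FPKM, scaled for transcript length and library size. Low values gave a relative depth per library, and read steps (tolerance 0.1 of a read) were recovered for Egr2, Egr3 and Ier5 only. Intervals are 95% confidence intervals of the log2 fold change from the limma fit, based on the spread between libraries.

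Of 24487 entries, 27 with names turned into dates were left out (0.0771% of FPKM) and 260 repeated symbols were summed, none of them a member. Symbols were matched to RefSeq GRCm38.p6 for positions. The labels name mm9, but 715 of 715 loci in a supplementary table of the study overlapped genes of the former and 117 those of mm9.

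The 11256 genes that averaged 0.5 FPKM or more were fitted in limma 3.58.1 (R 4.3.3, statmod 1.5.0), with log2(FPKM + 0.5) as the response, its mean-variance trend and all 4 groups in 1 fit, and adjusted by Benjamini-Hochberg. Genes below the filter had exact two-sided permutation tests. Alternatives were pseudocounts, filters, scalings, array weights, a replicate block and leaving out each library. Companion genes named are at most the 3 called with the smallest adjusted p per list, direction and exercise contrast, and the 3 most correlated genes per member, 1 of which is not reported here. Members and lists were chosen with earlier results of these data known. The procedure was tested on simulated data. Tables were made with pandas 2.3.3, scipy 1.17.1 and numpy 2.4.6 and plots with matplotlib 3.10.9 (Python 3.11.15).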

Additional observations from a re-analysis of the deposited data

Results flagged for a closer look

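Ier2 in HFD-post replicate 3 was 1.197 FPKM, while the other 3 libraries of the group lay between 1.63 and 1.71 FPKM. Its gap to the nearest library was 0.837 of the range of the group, above Dixon's critical value for 4 samples. The 10 genes gave 40 groups of 4 libraries, of which chance alone flags about 1 in 20, and this was the only group flagged.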

How the results depend on the processing

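The values are FPKM without read counts, so precision at low levels is limited, above all for Egr2 and Egr3 with at most 12 and 8 reads per library. Cyr61, Egr1 and Myc kept their direction in all 3 exercise contrasts under every alternative tried, and each was called in the pooled contrast in 26 of 26 alternatives. The number of members called on CON was 1 in place of 2 with a pseudocount of 0.1, no filter, no trend or the replicate block, 3 with a pseudocount of 1, a mean of at least 1 FPKM, array weights, the 2 groups alone or an adjusted p under 0.1, and between 1 and 2 without 1 library. Egr1 then had an adjusted p of 0.0849 with the replicate block, which changed no other call. Replicate numbers did not pair the libraries: correlations of deviations for same-numbered libraries lay between -0.22 and 0.213, and 6 of 16 libraries were closest to their own number. The count on HFD was between 1 and 2 without 1 library, 2 without HFD-post replicate 1. Of the exact tests of Egr2 and Egr3, 1 was under 0.05, between 0 and 2 without 1 library, and 0 by limma without a filter. The pooled estimate of Ier3 was -0.0126 with upper-quartile scaling, -0.0016 with median-of-ratios scaling, -0.0080 with quantile normalization and -0.0070 with array weights, and between -0.0283 and 0.0863 without 1 library. That of Ier2 lay between -0.0558 and 0.13 without 1 library. The Egr1 interaction lay between -0.52 and 0.0812, and Cyr61 in HFD-post against CON-post between -0.36 and 0.0014. The cause was not tested. Of the values of single genes, 671 kept their direction and side of the threshold, 15 crossed it upwards, 11 downwards and 14 changed sign.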
